A study of Mus musculus with 28 samples.

Results

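The results concern 10 genes used as markers of dendritic cell subsets: *Xcr1*, *Clec9a*, *Flt3*, *Zbtb46*, *Batf3*, *Cd209a*, *Siglech*, *Itgae*, *Ccser1* and *Tcf4*. They were taken by name from the 49585 features of a liver RNA-seq count matrix, in which each symbol matched 1 Ensembl gene, and all 10 were among the 21583 genes with a mean normalised count of at least 0.5 per library. Whole livers of male and female C57BL/6JOlaHsd mice aged 5 to 7 months were sequenced, with 7 mice in each of 4 groups: WT males, SIRT6-tg males, WT females and SIRT6-tg females. By the paper's account, all of these mice had been fasted for 4 h. The SIRT6-tg animals carried a whole-body transgene for the deacylase SIRT6 and all came from a single transgenic line backcrossed to C57BL/6JOlaHsd, and the controls were WT littermates. The comparisons ask whether the transgene altered liver expression in each sex.

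Dendritic cells are antigen-presenting cells that arise in the bone marrow from precursors bearing the receptor FLT3, and in the liver they lie mainly around the portal tracts among far more numerous hepatocytes. Conventional type 1 cells (cDC1) depend on the transcription factor BATF3 and specialise in showing antigen from dead cells to CD8 T cells. Conventional type 2 cells (cDC2) favour CD4 T cells, and plasmacytoid cells (pDC) depend on the transcription factor TCF4 and are known for type I interferon. In a bulk liver library, fewer cells of a type and less RNA per cell cannot be told apart.

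The libraries held 18758863 to 35393069 counts assigned to genes. Levels are given as CPM, a gene's count relative to the total of its library after scaling by the trimmed mean of M-values (TMM), and a floor of 3 counts corresponded to 0.0743 to 0.159 CPM. *Sirt6* itself was 2.73 ± 0.511 CPM in WT males and 281 ± 55.2 CPM in SIRT6-tg males (SD, n = 7), and 2.88 ± 1.55 CPM in WT females and 30.2 ± 12.5 CPM in SIRT6-tg females (SD, n = 7), so the transgenic sexes differed in dose. The summed level of 9 hepatocyte markers was 108908 to 210720 CPM over all libraries, and none of them was at 0 in any group.

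On the scale of mean CPM per kilobase of exon over all 28 libraries, *Batf3* (1.27), *Tcf4* (1.25) and *Clec9a* (1.17) had the highest levels. *Zbtb46* followed at 0.723, and then *Xcr1* at 0.260, *Cd209a* at 0.254 and *Siglech* at 0.249 CPM per kilobase. *Itgae* at 0.141 and *Flt3* at 0.123 CPM per kilobase came next, and *Ccser1* was last at 0.00494. The neighbours within the first, the second and the third of these runs of levels (*Batf3*, *Tcf4* and *Clec9a*, then *Xcr1*, *Cd209a* and *Siglech*, then *Itgae* and *Flt3*) differed by less than the SD of a single gene over the libraries. The order differed between groups: in mean CPM per kilobase *Batf3* led in WT males (2.05, with *Clec9a* at 1.6 and *Tcf4* at 1.28), whereas *Tcf4* led in SIRT6-tg males (1.18, with *Batf3* at 0.838 and *Clec9a* at 0.680), in WT females (1.30, with *Batf3* at 1.28 and *Clec9a* at 1.26) and in SIRT6-tg females (1.25, with *Clec9a* at 1.14 and *Batf3* at 0.905). In SIRT6-tg males *Xcr1*, at 0.134 CPM per kilobase, was also under *Siglech* (0.228) and *Cd209a* (0.183). The *Tcf4* value rests on 27382 bases of merged exon against 1597 for *Batf3*, so a liver transcript using few of these exons would be understated.

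**Figure D1:**
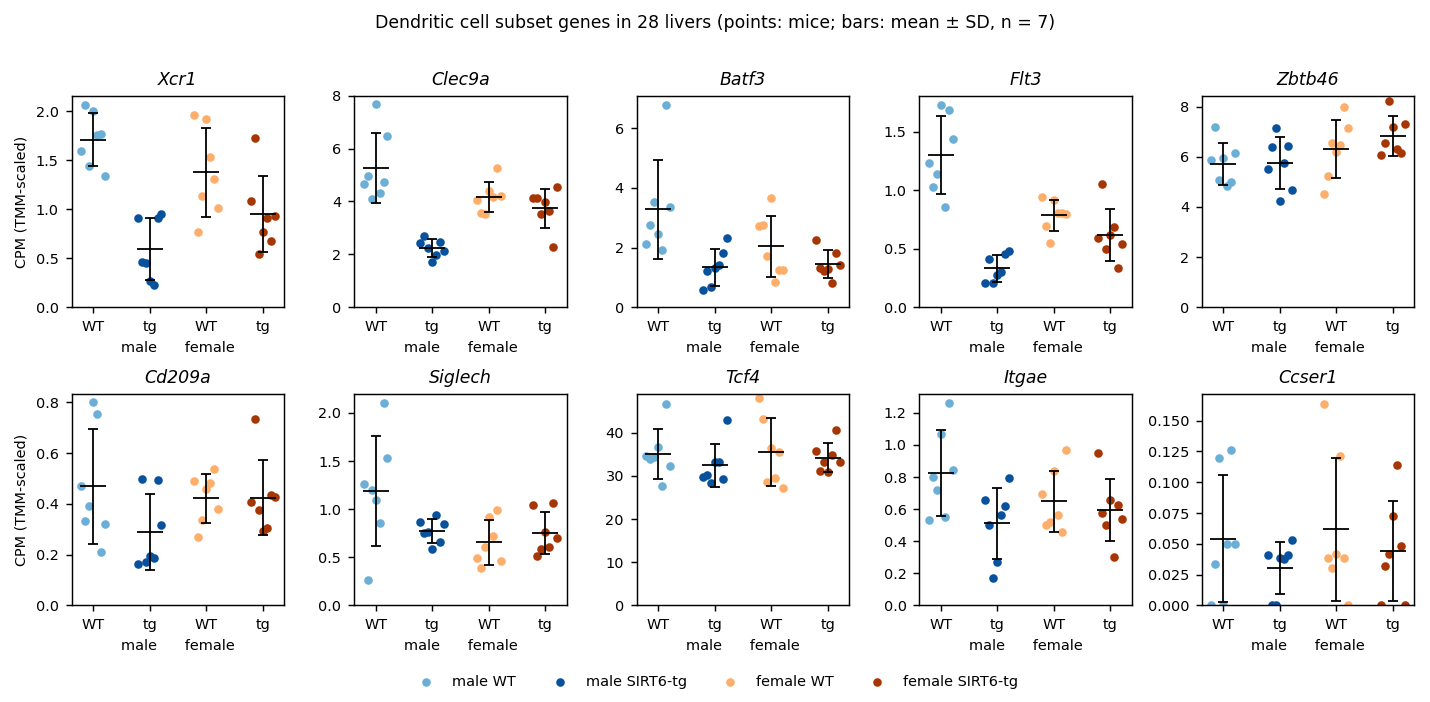
CPM (y axis, linear, from 0, own scale in each panel) of the 10 dendritic cell genes in each of 28 livers, by group; points are mice and bars are mean ± SD (n = 7). *Xcr1*, *Clec9a* and *Flt3* of SIRT6-tg males lay below every WT male, whereas *Zbtb46* and *Tcf4* overlapped in all groups and *Ccser1* reached at most 4 counts.

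In males, 4 of the 10 genes were lower in SIRT6-tg than in WT livers and 0 were higher at an adjusted p under 0.05 (edgeR quasi-likelihood test), against 11% of all tested genes called lower and 20.7% called in either direction. The 4 were *Flt3*, *Clec9a*, *Xcr1* and *Batf3*, that is the precursor receptor and 3 genes of the cDC1 programme. The other cDC1-associated gene, *Itgae*, did not pass, nor did *Zbtb46*, *Cd209a*, *Siglech*, *Tcf4* and *Ccser1*. Without *Ccser1*, the median log2 fold change over the genes was −0.71, beside 0.06 over all tested genes. The balance of all calls depended on the scaling, with 2377 genes lower and 2090 higher here, 2649 and 942 under upper-quartile scaling, and 4084 and 210 under library size alone. All 4 calls held in every alternative analysis and without any single library.

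*Xcr1*, on chromosome 9 (chr9:123852315-123862029, GRCm38, minus strand), encodes the receptor for the chemokine XCL1 and is the most restricted of the cDC1 surface markers. WT males had a lowest, median and highest *Xcr1* level of 1.34, 1.76 and 2.07 CPM (35 to 62 counts), and SIRT6-tg males had 0.225, 0.458 and 0.955 CPM (6 to 22 counts). Every SIRT6-tg male lay below every WT male, and the log2 fold change was −1.53 (SE 0.28, adjusted p = 1.62e-04), or 2.90-fold lower. WT females had 0.768, 1.30 and 1.96 CPM and SIRT6-tg females 0.541, 0.914 and 1.72 CPM. The female groups overlapped over most of their ranges, with a log2 fold change of −0.52 (SE 0.27, adjusted p = 0.927).

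*Clec9a* (chr6:129408862-129424763, GRCm38, plus strand) encodes a C-type lectin receptor by which cDC1 sense dead cells. Its lowest, median and highest level was 4.11, 4.72 and 7.70 CPM in WT males and 1.71, 2.25 and 2.71 CPM in SIRT6-tg males. The male groups did not overlap, and the log2 fold change was −1.24 (SE 0.15, adjusted p = 5.32e-07). In females the values were 3.54, 4.15 and 5.25 CPM in WT and 2.27, 3.97 and 4.57 CPM in SIRT6-tg, which overlapped, with a log2 fold change of −0.15 (SE 0.15, adjusted p = 1.00). *Clec9a* shares 184 bases, 5.59% of its exon length, with *Clec1b* on the same strand, a lectin gene that was at 21.5 ± 9.63 CPM in WT males and 15.2 ± 3.41 CPM in SIRT6-tg males (SD, n = 7; log2 fold change −0.50, adjusted p = 0.112), and the part of shared reads in the *Clec9a* value was not tested.

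*Batf3* (chr1:191097847-191108945, GRCm38, plus strand) encodes the AP-1 family factor on which cDC1 depend. Its lowest, median and highest level was 1.91, 2.76 and 6.78 CPM in WT males and 0.576, 1.32 and 2.33 CPM in SIRT6-tg males. In 6 of the 7 SIRT6-tg males it was below every WT male, and the log2 fold change was −1.30 (SE 0.32, adjusted p = 0.00361). A single WT male, replicate 6, held the value of 6.78 CPM, and leaving out any 1 library gave log2 fold changes of −1.50 to −1.03 with adjusted p of at most 0.0133. In females *Batf3* was 0.847, 1.71 and 3.67 CPM in WT and 0.80, 1.31 and 2.26 CPM in SIRT6-tg, and the SIRT6-tg values all lay within or just under the WT range (log2 fold change −0.50, adjusted p = 1.00).

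*Itgae* (chr11:73090583-73147446, GRCm38, plus strand) encodes CD103, the integrin alpha E chain found on cDC1 of many tissues and also on resident CD8 T cells. It was 0.530, 0.799 and 1.26 CPM in WT males and 0.173, 0.562 and 0.795 CPM in SIRT6-tg males (lowest, median, highest). The male groups overlapped, and the log2 fold change of −0.71 (SE 0.27) did not pass (adjusted p = 0.0655). The side of the threshold depended on the setting: upper-quartile scaling (adjusted p = 0.0476), edgeR's default expression filter (0.0499), DESeq2 (0.0345), 2 surrogate variables (0.0126) and library size alone (0.00824) each called it, as did leaving out WT male replicate 1 or SIRT6-tg male replicate 7. The summed level of 8 T cell markers was 13.2 to 38.9 CPM in WT males and 3.80 to 5.50 CPM in SIRT6-tg males, and its part in the *Itgae* values was not tested. Females showed *Itgae* at 0.460, 0.565 and 0.968 CPM in WT and 0.305, 0.574 and 0.951 CPM in SIRT6-tg, with nearly the same median (log2 fold change −0.13, adjusted p = 1.00).

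*Flt3* (chr5:147330741-147400489, GRCm38, minus strand) encodes the receptor tyrosine kinase for FLT3 ligand, which drives dendritic cell development from progenitors. Its lowest, median and highest level was 0.853, 1.24 and 1.73 CPM in WT males and 0.206, 0.300 and 0.477 CPM in SIRT6-tg males. The highest SIRT6-tg male was well under the lowest WT male, and the log2 fold change of −1.98 (SE 0.24, adjusted p = 3.37e-07), or 3.94-fold lower, was the furthest from 0 of the 4 called. WT females had 0.550, 0.804 and 0.940 CPM, all between the male groups' medians. SIRT6-tg females had 0.338, 0.588 and 1.05 CPM and overlapped them (log2 fold change −0.32, SE 0.23, adjusted p = 1.00). For *Xcr1*, *Clec9a* and *Flt3*, 3 of the 10 genes, every SIRT6-tg male was below every WT male, against 4.37% of all tested genes.

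The gene for the FLT3 ligand itself, *Flt3l*, averaged 3.05 CPM in WT males and 2.92 CPM in SIRT6-tg males, with a log2 fold change of −0.07 (adjusted p = 0.848). The XCR1 ligand gene *Xcl1*, which NK and CD8 T cells express, was lower in SIRT6-tg males (log2 fold change −1.19, SE 0.42, adjusted p = 0.0428).

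*Zbtb46* (chr2:181387762-181459426, GRCm38, minus strand) encodes a zinc finger factor that marks conventional dendritic cells among myeloid cells and is also made by endothelium. It was 4.82, 5.86 and 7.19 CPM in WT males and 4.23, 5.77 and 7.16 CPM in SIRT6-tg males (lowest, median, highest), ranges that almost coincided. The log2 fold change in males was 0.00 (SE 0.13, adjusted p = 0.991), and it was below 0 under several other scalings, which are given among the processing limits. Females had 4.54, 6.49 and 8.0 CPM in WT and 6.07, 6.57 and 8.25 CPM in SIRT6-tg (log2 fold change 0.12, SE 0.13, adjusted p = 1.00). The summed level of 8 endothelial markers was 221 to 318 CPM in WT males and 215 to 283 CPM in SIRT6-tg males, and none of the 8 was at 0 in any group.

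*Cd209a* (chr8:3743397-3748984, GRCm38, minus strand) encodes DC-SIGN, a lectin of cDC2 and monocyte-derived dendritic cells. The level was low in all groups, at 0.211, 0.390 and 0.80 CPM in WT males and 0.164, 0.194 and 0.50 CPM in SIRT6-tg males (lowest, median, highest). In 4 of the 7 SIRT6-tg males it was under every WT male, but the log2 fold change of −0.68 (SE 0.31) did not pass (adjusted p = 0.126). Females had 0.269, 0.459 and 0.536 CPM in WT and 0.291, 0.407 and 0.734 CPM in SIRT6-tg, overlapping almost throughout (log2 fold change 0.02, SE 0.30, adjusted p = 1.00).

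*Siglech* (chr7:55768178-55778925, GRCm38, plus strand) encodes the lectin Siglec-H, a surface marker of pDC. In WT males it ranged from 0.266 through a median of 1.20 to 2.11 CPM, the widest relative spread of the 4 groups for this gene. SIRT6-tg males had 0.582, 0.761 and 0.937 CPM, inside that range, and the log2 fold change was −0.62 (SE 0.28, adjusted p = 0.109). The call depended on the lowest of the WT males, replicate 2: without that library the log2 fold change was −0.82 with an adjusted p of 0.0109. It depended on the scaling as well, since library size alone gave −0.91 with an adjusted p of 0.0191. In females *Siglech* was 0.384, 0.611 and 0.996 CPM in WT and 0.511, 0.696 and 1.06 CPM in SIRT6-tg (log2 fold change 0.18, SE 0.29, adjusted p = 1.00).

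*Tcf4*, on chromosome 18, encodes the E protein E2-2 that pDC require and that many other cell types express. Its lowest, median and highest level was 27.6, 34.5 and 46.5 CPM in WT males and 28.5, 30.2 and 43.0 CPM in SIRT6-tg males. Females had 27.3, 35.6 and 48.0 CPM in WT and 30.9, 33.3 and 40.6 CPM in SIRT6-tg. The groups overlapped in both sexes, with log2 fold changes of −0.12 (SE 0.12, adjusted p = 0.556) in males and −0.05 (SE 0.12, adjusted p = 1.00) in females.

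*Ccser1* (chr6:61180324-62382865, GRCm38, plus strand) encodes a coiled-coil serine-rich protein. It was at 0 to 4 counts per library in WT males and in WT females, 0 to 1 in SIRT6-tg males and 0 to 3 in SIRT6-tg females. At or under the floor of 3 counts were 6 of 7 WT males, 7 of 7 SIRT6-tg males, 6 of 7 WT females and 7 of 7 SIRT6-tg females, so its fitted fold changes are not read as results and a difference was not detectable at this depth.

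In females, 0 of the 10 genes were called in either direction, against 0.0278% of all tested genes (edgeR). Among the 10, 0 had an unadjusted p under 0.05, the lowest being that of *Xcr1* at 0.0657, and DESeq2 also called 0. Without *Ccser1*, the median log2 fold change was −0.13, beside 0.00 over all tested genes.

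**Figure D2:**
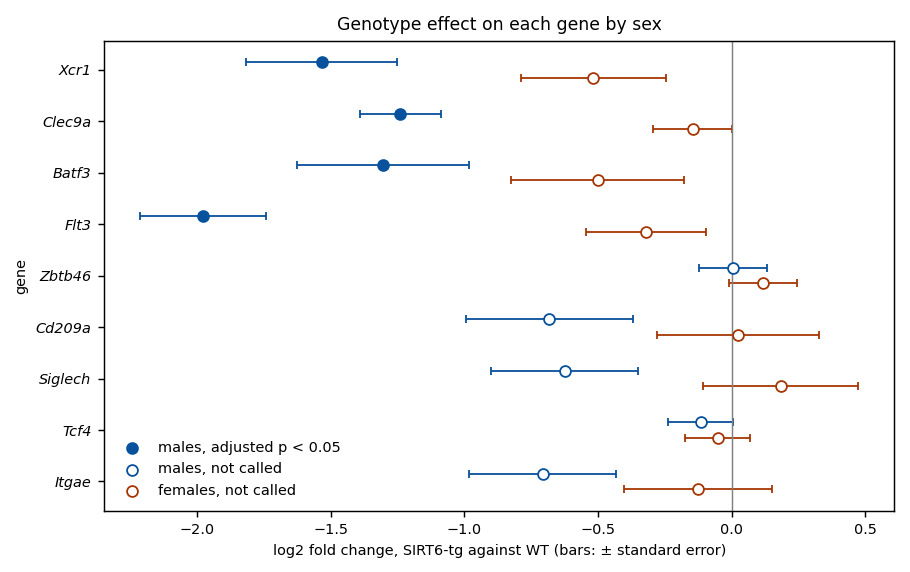
Log2 fold change of SIRT6-tg against WT (x axis) with its standard error for 9 dendritic cell genes in males (blue) and females (brown); filled points passed an adjusted p of 0.05 and *Ccser1* is left out for its low counts. The 4 filled points are *Xcr1*, *Clec9a*, *Batf3* and *Flt3* in males, between −1.98 and −1.24.

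The difference between the male and female genotype effects was tested directly in the same fit. It was called below 0 for 2 of the 10 genes at an adjusted p under 0.05, against 3.84% of all tested genes called in that direction and 5.05% in either. For *Flt3* the male effect was lower than the female effect by a log2 difference of −1.66 (SE 0.33, adjusted p = 0.00251), and for *Clec9a* by −1.09 (SE 0.21, adjusted p = 0.00221). The difference for *Xcr1* was −1.02 (SE 0.39, adjusted p = 0.139), for *Siglech* −0.81 (adjusted p = 0.273) and for *Batf3* −0.80 (adjusted p = 0.354), none of which passed, although *Xcr1* did under library size alone (adjusted p = 0.0268) and *Batf3* did with 2 surrogate variables (adjusted p = 0.0101). The comparison also carries the unequal *Sirt6* level of the sexes, from which a sex difference cannot be told apart.

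Among WT livers, 2 of the 10 genes were higher in males than in females, against 6.65% of all tested genes called higher and 12.4% in either direction. *Flt3* was higher by a log2 difference of 0.73 (SE 0.21, adjusted p = 0.0197), which reached an adjusted p of 0.050 without WT female replicate 3. *Siglech* was higher by 0.86 (SE 0.28, adjusted p = 0.0389), and leaving out any of 8 single libraries gave an adjusted p above 0.05 (up to 0.116), namely WT male replicates 3, 6 and 7 and WT female replicates 1, 2, 3, 5 and 7. *Batf3* at 0.69 (adjusted p = 0.156) and *Clec9a* at 0.35 (adjusted p = 0.128) did not pass. Among SIRT6-tg livers, 2 genes were lower in males than in females, against 10.2% of all tested genes called lower and 23.1% in either direction. These were *Flt3*, with a log2 difference of −0.92 (SE 0.25, adjusted p = 0.00728), and *Clec9a*, with −0.75 (SE 0.15, adjusted p = 6.97e-04). *Xcr1*, at −0.70 (SE 0.29, adjusted p = 0.0793), did not pass, although it did under DESeq2 (0.0496), library size alone (0.0409) and 2 surrogate variables (0.0430). The sex and genotype comparisons share groups of mice, so their values are not independent of each other.

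The promoters of the 3 called members with the lowest adjusted p in males are shown, which are also the genes whose male groups did not overlap. Promoters of 8 of the 10 genes were searched, taken from the RefSeq table (GRCm38.p6). *Itgae* had no entry there, and *Tcf4* was left out of the search by its chromosome. The 250 bases upstream of the RefSeq start, read 5′ to 3′ on the gene's strand, lie at chr5:147400490-147400739 (minus strand) for *Flt3*, chr6:129408612-129408861 (plus strand) for *Clec9a* and chr9:123862030-123862279 (minus strand) for *Xcr1*. Letters that match a searched motif would be in capitals.
Flt3: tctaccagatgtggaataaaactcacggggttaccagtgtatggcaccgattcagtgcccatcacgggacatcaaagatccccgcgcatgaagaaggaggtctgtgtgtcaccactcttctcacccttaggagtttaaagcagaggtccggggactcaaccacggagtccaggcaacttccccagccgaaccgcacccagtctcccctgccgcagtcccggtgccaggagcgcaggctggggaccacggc
Clec9a: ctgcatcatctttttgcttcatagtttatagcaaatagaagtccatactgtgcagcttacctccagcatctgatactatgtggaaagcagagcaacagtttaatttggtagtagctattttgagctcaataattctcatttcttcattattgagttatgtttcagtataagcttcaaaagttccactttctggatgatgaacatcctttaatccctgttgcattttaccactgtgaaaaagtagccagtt
Xcr1: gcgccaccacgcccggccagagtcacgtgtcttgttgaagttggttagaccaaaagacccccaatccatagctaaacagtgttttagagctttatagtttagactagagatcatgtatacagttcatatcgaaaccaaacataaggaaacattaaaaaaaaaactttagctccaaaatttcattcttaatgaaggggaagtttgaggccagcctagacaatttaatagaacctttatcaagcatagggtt
The motifs searched on both strands were the AP-1 site TGANTCA, bound by BATF-family dimers, the interferon-stimulated response element, the E-box CAGGTG, bound by E proteins such as TCF4, and the PU.1 site GAGGAAGT. None of the 4 occurred in these 3 windows. Over 32851 promoters of the same length, 6.75% held the AP-1 letters, 2.98% the interferon-stimulated response element, 17.2% the E-box and 2.44% the PU.1 letters. Among the 8 members whose promoter was searched, *Siglech* held an E-box on the minus strand, 20 to 15 bases before the start, and *Zbtb46* held an AP-1 match 61 to 55 bases and an E-box 238 to 233 bases before the start. A match describes letters only and says nothing of binding.

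The 4 genes that were lower in males moved beside other immune transcripts. The summed level of 5 leukocyte markers was 104 to 227 CPM in WT males and 44.3 to 72.8 CPM in SIRT6-tg males, with all 5 genes lower in SIRT6-tg males (median log2 fold change −1.49), and it was 64.6 to 125 CPM in WT females and 61.3 to 109 CPM in SIRT6-tg females. To set each dendritic cell gene against other transcripts of the same library, its count was divided by the summed counts of a marker list. This comparison was added after the data were seen and tested by exact permutation over mice (72 tests, smallest possible p = 0.000583). Dendritic cells are leukocytes themselves, so the leukocyte sum is not a measure of other cells alone.

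Relative to leukocyte markers, a difference between the male groups was not detected for 3 of the 4 genes lower in males: the log2 ratio in SIRT6-tg minus WT was −0.21 for *Xcr1* (SE 0.36, exact p = 0.566), 0.28 for *Clec9a* (SE 0.19, exact p = 0.168) and 0.18 for *Batf3* (SE 0.24, exact p = 0.448). *Flt3* was lower even relative to leukocyte markers, by −0.51 on the log2 scale (exact permutation p = 0.00466, adjusted p = 0.0224). *Zbtb46* at 1.49 and *Tcf4* at 1.38 were higher relative to leukocyte markers in every SIRT6-tg male than in every WT male (exact permutation p = 0.000583, the smallest possible, adjusted p = 0.00524), and *Siglech* was higher by 1.06 (adjusted p = 0.0210). *Itgae* at 0.71 (adjusted p = 0.0707) and *Cd209a* at 0.79 (adjusted p = 0.267) did not pass. The leukocyte sum itself fell from a median of 163 CPM in WT males to 54.8 CPM in SIRT6-tg males. A lower denominator by itself raises every ratio to it. In CPM, *Zbtb46* (log2 fold change 0.00), *Tcf4* (−0.12) and *Siglech* (−0.62) were not called, so the higher ratios do not show a rise of these genes.

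Relative to Kupffer cell markers, the resident macrophages of the liver, *Flt3* was again lower in SIRT6-tg males, by −0.96 (exact permutation, adjusted p = 0.00839), and *Zbtb46* (1.04) and *Tcf4* (0.93) were higher (adjusted p = 0.0210 each). The ratios to Kupffer cell markers of *Xcr1* (−0.67, SE 0.38, adjusted p = 0.294), *Clec9a* (−0.18, SE 0.22, adjusted p = 0.601), *Batf3* (−0.27, SE 0.29, adjusted p = 0.601), *Siglech* (0.61), *Cd209a* (0.33) and *Itgae* (0.26) did not pass (exact permutation). The Kupffer cell sum also fell, from a median of 600 CPM in WT males to 258 CPM in SIRT6-tg males, which by itself raises these ratios. Relative to endothelial markers, *Flt3* (−1.90), *Xcr1* (−1.60) and *Clec9a* (−1.11) were lower in every SIRT6-tg male than in every WT male (adjusted p = 0.00524 each), *Batf3* was lower by −1.20 (adjusted p = 0.0153), and *Zbtb46* (0.10, SE 0.13) and *Tcf4* (−0.01, SE 0.13) did not pass. Relative to hepatocyte markers the log2 ratios fell for *Flt3* (−2.38), *Xcr1* (−2.08), *Batf3* (−1.68), *Clec9a* (−1.59), *Itgae* (−1.16), *Cd209a* (−1.08) and *Tcf4* (−0.49), with adjusted p from 0.00524 to 0.0490 (exact permutation), and those of *Siglech* (−0.81) and *Zbtb46* (−0.38) did not pass. The hepatocyte sum itself rose, from a median of 120310 CPM in WT males to 160603 CPM in SIRT6-tg males, which by itself lowers these ratios. In CPM, *Itgae*, *Cd209a* and *Tcf4* were not called. In females none of the ratios passed.

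**Figure D3:**
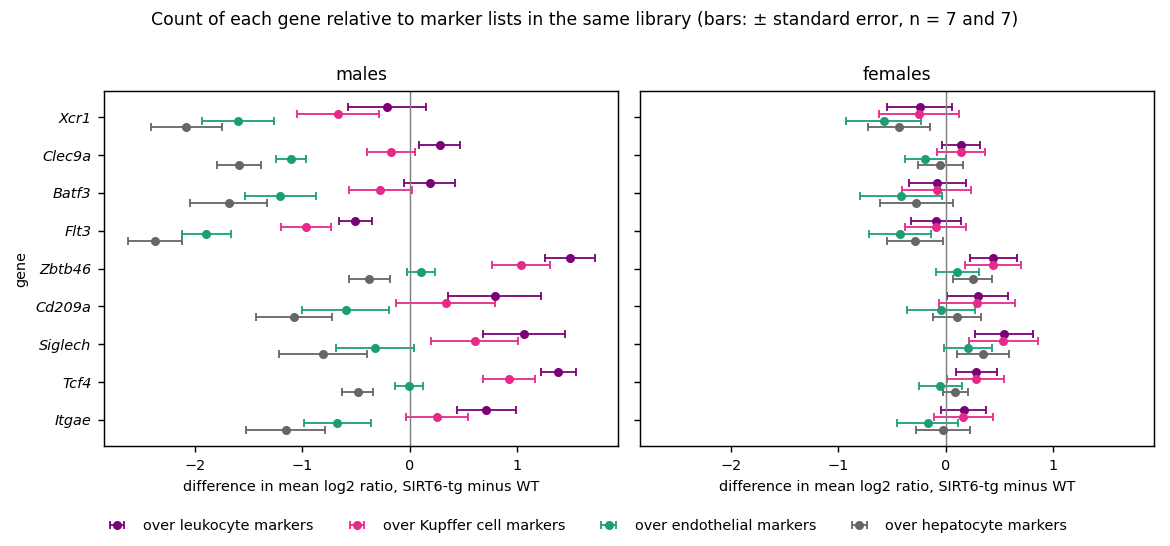
Difference (SIRT6-tg minus WT, x axis) in the mean log2 ratio of each gene's count to the summed counts of leukocyte, Kupffer cell, endothelial or hepatocyte markers in the same library, with standard errors (n = 7 and 7). In males *Xcr1*, *Clec9a* and *Batf3* lay near 0 over leukocyte markers and between −1.60 and −1.11 over endothelial markers, and *Flt3* was below 0 over all 4 lists.

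Other genes of the same subsets gave the surroundings of these values. The counts in these lists stand beside 11% of all tested genes called lower in SIRT6-tg males and 20.7% called in either direction. Markers of other immune cells were also lower in SIRT6-tg males, as given below, and the part of other cell types in these lists was not tested. Of 12 further cDC1 genes tested, 8 were lower and 1 was higher in SIRT6-tg males, with a median log2 fold change of −1.09. The summed level of these 12 genes overlapped between the male groups, at 222 to 340 CPM in WT and 212 to 392 CPM in SIRT6-tg. Among them *Irf8*, the factor that specifies cDC1, was lower by a log2 fold change of −1.74 (adjusted p = 2.79e-08) and *Wdfy4*, needed for cross-presentation, of −1.30 (adjusted p = 2.31e-07). *Id2*, a partner of E proteins that blocks the pDC fate, was the 1 gene higher (0.61, adjusted p = 0.0157), and *Cadm1*, a cDC1 adhesion molecule, was at −0.14 (adjusted p = 0.457).

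Of 10 cDC2 genes, 4 were lower and 0 higher, with a median of −0.48. The 4 were *Sirpa* (−1.70), *Clec12a* (−1.56), *Irf4* (−1.26) and *Clec10a* (−0.86), of which *Sirpa* and *Clec12a* are also made by macrophages and other myeloid cells. *Esam*, an endothelial adhesion gene as well, was at 0.00 (adjusted p = 0.999) and *Rbpj*, the Notch effector, at −0.03 (adjusted p = 0.894).

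Of 12 pDC genes, 10 were lower and 0 higher in SIRT6-tg males, with a median of −1.53. *Tlr9*, the sensor of unmethylated DNA, was lower by a log2 fold change of −2.16 (adjusted p = 1.26e-04) and *Pacsin1*, a membrane-trafficking gene that marks pDC, of −1.62 (adjusted p = 3.03e-04). *Tlr7*, the sensor of single-stranded RNA, was at −1.22 (adjusted p = 5.78e-04). *Runx2* (−1.51) and *Bcl11a* (−1.59), factors of pDC and of other blood cells, were lower as well, while *Bst2* (−0.35, adjusted p = 0.305) did not pass. The 2 pDC genes among the members, *Siglech* and *Tcf4*, were not called.

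Of 12 genes of mature dendritic cells, 10 were lower and 0 higher (median −1.65). They included the chemokine gene *Ccl22* (−3.33), the checkpoint ligand gene *Cd274* (−2.76), the costimulatory receptor gene *Cd40* (−2.12), *Cd83* (−1.52) and *Ccr7* (−1.34), the receptor for homing to lymph nodes, while *Socs2* (−0.31, adjusted p = 0.528) did not pass. Of 12 tested genes for ligands, growth factor receptors and development, 10 were lower and 0 higher (median −1.09), among them *Itgax* (−3.09), which encodes CD11c, and *Ikzf1* (−1.64) and *Spi1* (−1.40), factors of many leukocytes. *Mycl* was at 0.30 (adjusted p = 0.22). In females 0 genes of any of these lists were called by edgeR.

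**Figure D4:**
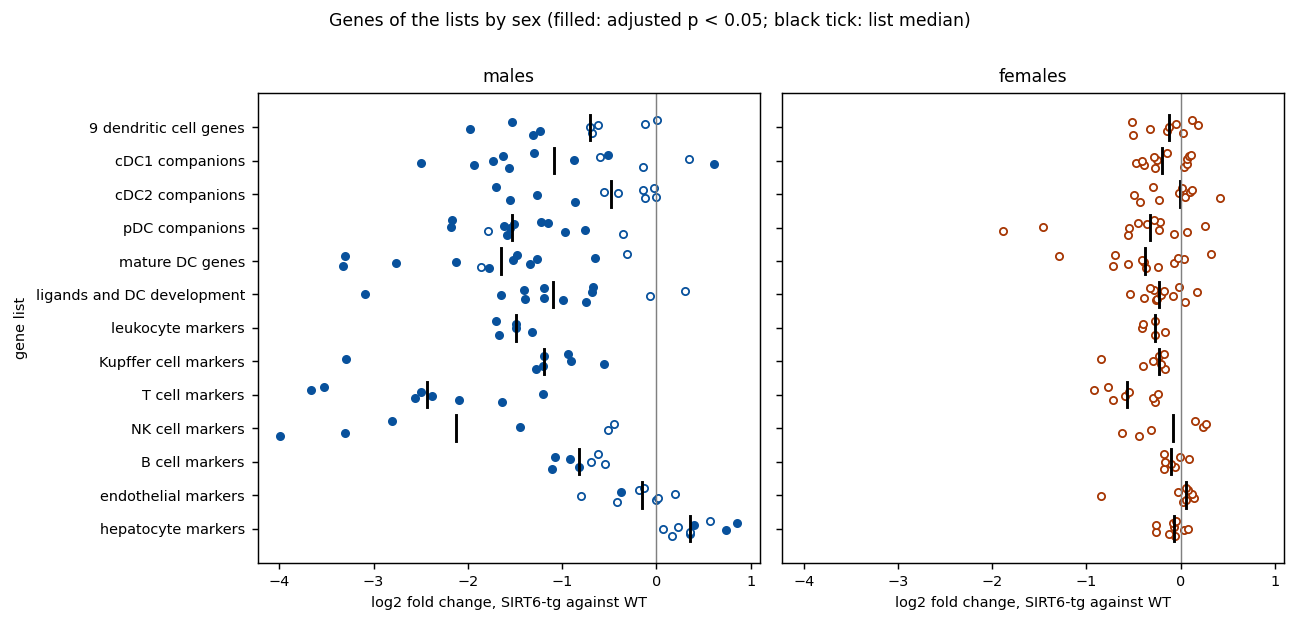
Log2 fold change of SIRT6-tg against WT (x axis) for the genes of 13 lists (y axis) in males and females; each point is a gene, filled where the adjusted p was under 0.05, and the black tick is the list median. Male medians ranged from −2.44 for T cell markers to 0.36 for hepatocyte markers, with the 9 dendritic cell genes at −0.71.

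Markers of other cell types also moved with the male groups. In SIRT6-tg males 7 of 7 Kupffer cell markers (median log2 fold change −1.19), 8 of 8 T cell markers (−2.44) and 4 of 6 NK cell markers (−2.13) were lower, against 1 of 8 endothelial markers (−0.15). In the same comparison 7 of 8 stellate cell markers (median −0.69) and 4 of 7 B cell markers (−0.82) were lower, and 4 of 9 hepatocyte markers were higher (median 0.36). Of the neutrophil markers 0 of 6 were called, although their median was −0.72, and 0 of 6 cholangiocyte markers were called (median −0.37). The median of the 9 dendritic cell genes without *Ccser1* was −0.71. The part of these other cell types in the values of the 10 genes was not tested. The ratios to marker lists cannot give it, since fewer cells and less RNA per cell cannot be told apart in bulk libraries.

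Within the groups, the libraries varied together to different degrees. Averaged over the 4 groups of 7, the genes whose log2 CPM followed *Flt3* most closely among 12331 genes included *Gbp3* (mean Pearson r 0.79) and *Igtp* (0.75). For *Clec9a* they were *Cd274*, *Pik3cg* and *H2-T24* (each 0.78), and for *Tcf4* they were *Hypk* (0.91), *Dnajc25* (0.90) and *Ppp3ca* (0.89). *Flt3* and *Clec9a* had a mean r of 0.54 with each other, and *Tcf4* had −0.29 with *Clec9a*. These values describe 28 libraries, share depth and tissue composition, and carry no test. Of 20 correlations of chosen gene pairs within groups, 0 passed after adjustment, the lowest adjusted p being 0.634 (exact permutation of 7 mice).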

How the data were processed

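Liver RNA was made into single-end libraries with a NEBNext Ultra kit. The authors aligned reads with STAR 2.5.0a to mm10, counted uniquely mapped reads per gene with HTSeq and Gencode annotation, and deposited raw counts; the strand setting is not given in the sources used here. The counts were tested with the edgeR 4.0.16 quasi-likelihood test (robust, TMM scaling, all 28 libraries in 1 fit, Benjamini-Hochberg over 21583 genes, adjusted p under 0.05, two-sided), checked on simulated data. Standard errors were derived from the F statistic. Gene positions and exon lengths came from Gencode annotation on GRCm38, by Ensembl ID. The members and gene lists were chosen with earlier results of these data known. All 10 members were named, with the 2 lowest and the highest adjusted p in males of each companion list; further companion genes were chosen after their values were seen, and markers of other cells are given as counts. Genes alike to *Flt3*, *Clec9a* and *Tcf4* were taken from the 3 of highest mean r, at a mean CPM of at least 1, of which 1 is not reported here. Promoters were printed for the 3 called members of lowest adjusted p. Replicates were taken as separate mice; no 2 libraries agreed within sampling noise (chi-square per gene at least 13.3). The alternatives were RLE (relative log expression), upper-quartile and library-size scaling, other expression filters, DESeq2 1.42.0, each sex alone, a replicate block, 2 surrogate variables (sva 3.50.0) and leaving out each library. The floor of 3 counts covers counting error only, whereas the SDs and standard errors include the spread between mice. For the exact tests, n = 7 against 7 gave 3432 splits.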

Additional observations from a re-analysis of the deposited data

Results flagged for a closer look

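The male and female genotype effects differed, by the interaction test in edgeR, for *Clec9a* (log2 difference −1.09, adjusted p = 0.00221) and *Flt3* (log2 difference −1.66, adjusted p = 0.00251). In males both genes were lower in 7 of 7 SIRT6-tg mice than in every WT mouse.

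In 3 of the 40 groups of 7 examined, the highest mouse stood far from the others by Dixon's ratio, where chance gives about 2. *Batf3* was at 6.78 CPM (161 counts) in WT male replicate 6, with the next mouse at 3.54 CPM. *Cd209a* was at 0.734 CPM (23 counts) in SIRT6-tg female replicate 2, with the next at 0.434 CPM. *Tcf4* was at 43.0 CPM in SIRT6-tg male replicate 7, with the next at 33.2 CPM. The cause was not tested.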

How the results depend on the processing

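The male calls of *Xcr1*, *Clec9a*, *Flt3* and *Batf3* kept their direction and side of the threshold in all 9 alternatives and without any 1 library. Library size alone moved the median log2 fold change of all genes in males from 0.06 to −0.22 and called 8 of the 10 genes lower (adding *Itgae* at −1.0, *Cd209a* at −0.97, *Siglech* at −0.91 and *Tcf4* at −0.41). Under the same scaling more of all tested genes were called lower as well, as given above for males. For WT males against WT females the 2 genes called became 4 under library size alone, 1 with no filter and 1 with 2 surrogate variables, and 0 to 2 when a library was left out (0 without WT female replicate 3). For SIRT6-tg males against SIRT6-tg females they became 5 with 2 surrogate variables. In the other comparisons the number of genes called by leaving out a library was 4 to 5 in males, 0 in females, 2 for the difference between sexes and 2 to 3 for SIRT6-tg males against females. The cause of these shifts was not tested, and these member counts are not set beside the share of all genes called in each setting. The share of higher calls among all genes also moved by over 10 points in several alternatives, for example from 53.8% to 86.8% between WT sexes and from 55.9% to 39% between SIRT6-tg sexes under library size alone.

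The sign changed for the following values, none of them called. In males *Zbtb46* (0.00) was at −0.038 under RLE, −0.076 under upper-quartile scaling, −0.27 under library size alone, −0.0065 under edgeR's default filter, −0.0041 with a replicate block, −0.039 in DESeq2 and −0.028 with each sex fitted alone. In females, 2 surrogate variables gave −0.0056 for *Cd209a* and 0.016 for *Tcf4*. Between WT sexes *Tcf4* was at 0.0047 under RLE, 0.0048 in DESeq2 and 0.19 under library size alone, which also gave 0.047 for *Zbtb46*. Between SIRT6-tg sexes *Siglech* was at −0.029 under upper-quartile scaling, −0.044 under library size alone and −0.085 with 2 surrogate variables. Leaving out 1 library gave ranges across 0 for *Zbtb46* in males (−0.058 to 0.055), in females for *Cd209a* (−0.18 to 0.10), *Ccser1* (−0.80 to 0.0018) and *Tcf4* (−0.11 to 0.027), for the difference between sexes of *Ccser1* (−0.77 to 0.045) and *Tcf4* (−0.16 to 0.016), between WT sexes for *Cd209a* (−0.039 to 0.25), *Ccser1* (−0.53 to 0.22) and *Tcf4* (−0.095 to 0.082), and between SIRT6-tg sexes for *Batf3* (−0.29 to 0.021) and *Siglech* (−0.031 to 0.15).

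No pairing of the mice by replicate number was detected, and litter and cage are not given for each mouse. Same-numbered libraries had deviations correlated at −0.345 to 0.328 over 42 pairs, and 3 of 28 libraries correlated best with their own number. The replicate block left 4 genes called in males, 0 in females, 2 for the difference between sexes, 2 between WT sexes and 2 between SIRT6-tg sexes.

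Depth limits *Ccser1* throughout: its fitted values rest on 0 to 4 counts per library and are not read as results. *Flt3*, *Xcr1*, *Cd209a*, *Siglech* and *Itgae* also rest on few reads per library, at most 62. *Batf3* held 14 to 44 counts per library in SIRT6-tg males and 21 to 50 in SIRT6-tg females, and *Clec9a* held 40 to 65 in SIRT6-tg males.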
